A study of Mus musculus with 3 samples.

Results

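In haematopoietic progenitor cells of the mouse, 8 genes were followed, 7 of the calprotectin and cystatin families and 1 for a neutrophil protease, namely S100a8, S100a9, Stfa2l1, Stfa3, Cstb, Cst3, Cst7 and Asprv1. They were taken by name, with all 9 probe sets that the platform annotation pairs with 1 of these genes, out of 45037 probe sets and 18193 genes. The annotation pairs 2 further probe sets with several stefin copies at once, Cstdc5 with Stfa1 and Cstdc4 with Csta2, and these are described beside the others without being assigned to a copy. The genes were chosen by their intensity differences between these same arrays, so every difference from wild type below is a description and none carries a test.

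Affymetrix GeneChip intensities were measured in bone marrow cells of C57BL/6J mice aged 10 weeks, in a fraction positive for Sca-1 and negative for lineage markers, which is enriched for stem and progenitor cells. The samples were 1 of Tg(Ly6a-KDM1A*v2, Line 3), 1 of Tg(Ly6a-KDM1A*v2, Line 6) and 1 of wild type mice, so that each genotype had 1 array. The transgene is named with Ly6a, the Sca-1 gene, and with KDM1A, the gene of the histone demethylase LSD1. How many mice were behind an array is not stated in the labels. Each genotype is represented by 1 line and 1 array, and this small number of arrays limits precision throughout.

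S100a8 and S100a9 are small calcium-binding proteins that join to form calprotectin, the main cytosolic protein of neutrophils, which also binds zinc and manganese and signals through Toll-like receptors when it is released. Cystatins inhibit papain-type cysteine proteases such as the cathepsins. Stefins are the short cystatins that stay inside the cell, and in the mouse their A-type copies lie in a gene cluster and are abundant in neutrophils. Cstb encodes stefin B, Cst3 the secreted cystatin C and Cst7 cystatin F, which is directed to endosomes and lysosomes of immune cells. Asprv1 encodes a retroviral-like aspartic protease known from the skin, where it processes filaggrin, and also from neutrophils.

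The stefin genes are shown first by the sequence before their starts, because copies of this cluster had the largest differences in the list together with Asprv1. Likeness before the start does not show which copies a probe set can tell apart, and that was not tested. In the RefSeq tables (GRCm38.p6), 11 stefin and stefin-like genes lie on chromosome 16 between 36119946 and 36455392, a span of 335 kb. Promoter windows of 300 bases, 250 before and 50 after the annotated start, were found for 7 of the 8 genes. The 120 bases before the start are printed 5′ to 3′ on the strand of the gene, for Stfa2l1 (chr16:36156691-36156810, plus strand), Stfa3 (chr16:36455393-36455512, minus strand), Stfa1 (chr16:36277028-36277147, plus strand), Cstdc5 (chr16:36367571-36367690, minus strand), Cstdc4 (chr16:36184092-36184211, plus strand) and Csta2 (chr16:36221442-36221561, plus strand). Capitals mark ACCTTTAAAACCC, the longest run that the windows of Stfa2l1, Stfa3, Stfa1, Cstdc5 and Cstdc4 share, which was sought after the sequences had been seen, and TTGCNNAA, a form of the C/EBP motif.
Stfa2l1: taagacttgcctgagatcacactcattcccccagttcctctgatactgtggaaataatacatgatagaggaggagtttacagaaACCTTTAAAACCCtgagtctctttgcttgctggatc
Stfa3: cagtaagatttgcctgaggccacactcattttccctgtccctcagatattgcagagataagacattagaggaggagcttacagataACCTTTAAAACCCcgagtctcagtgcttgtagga
Stfa1: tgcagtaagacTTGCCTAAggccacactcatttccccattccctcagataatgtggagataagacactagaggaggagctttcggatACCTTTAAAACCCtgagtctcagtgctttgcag
Cstdc5: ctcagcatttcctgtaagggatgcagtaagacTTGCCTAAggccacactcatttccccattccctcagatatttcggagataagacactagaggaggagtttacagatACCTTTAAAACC
Cstdc4: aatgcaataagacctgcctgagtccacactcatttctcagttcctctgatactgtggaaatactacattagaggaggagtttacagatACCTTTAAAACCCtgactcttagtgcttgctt
Csta2: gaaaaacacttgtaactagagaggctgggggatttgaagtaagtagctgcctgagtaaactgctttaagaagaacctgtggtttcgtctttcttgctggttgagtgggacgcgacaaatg
The windows of Stfa2l1 and Stfa3 were identical at 84.0% of 294 aligned bases, and those of Stfa1 and Cstdc5 at 96.4% of 279. The shared run began 36 bases before the start in Stfa2l1, 34 in Stfa3, 33 in Stfa1, 12 in Cstdc5, where it runs past the bases printed, and 32 in Cstdc4. The window of Csta2 did not hold it. With both strands searched, it occurred in 9 of 32851 promoter windows of the same length (0.0274%), and 8 genes of this cluster were among them. These 8 include Stfa2l1, Stfa3, Stfa1, Cstdc5 and Cstdc4, whose windows defined the run, so nothing is read from its rarity. Of the 6 genes printed, the C/EBP form was found for Stfa1 and Cstdc5, and 10.8% of all windows held it.

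The calprotectin genes and Asprv1 are shown for comparison, with S100a8 at chr3:90668951-90669070 (plus strand), S100a9 at chr3:90695722-90695841 (minus strand) and Asprv1 at chr6:86628054-86628173 (plus strand). Capitals here mark TATAAA, the TATA box, in S100a8.
S100a8: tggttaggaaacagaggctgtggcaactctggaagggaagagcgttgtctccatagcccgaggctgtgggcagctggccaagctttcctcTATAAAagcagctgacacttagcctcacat
S100a9: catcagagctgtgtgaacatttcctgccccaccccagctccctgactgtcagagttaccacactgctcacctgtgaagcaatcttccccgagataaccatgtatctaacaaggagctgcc
Asprv1: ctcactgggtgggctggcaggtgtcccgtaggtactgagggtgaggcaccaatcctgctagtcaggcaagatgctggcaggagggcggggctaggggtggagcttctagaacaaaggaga
TATAAA began 30 bases before the start of S100a8 and at the annotated start of S100a9, just past its printed bases, and 13.6% of all windows held it on either strand. GAGGAAGT, a form of the PU.1 motif, was found on the minus strand of the S100a8 window, beginning 172 bases before the start, and in 3.20% of all windows. TTGCNNAA lay 236 bases before the start of S100a9, outside the bases printed. None of the searched motifs was in the windows of Asprv1 and Cst3, and that of Cst7 held TTGCNNAA on the minus strand. S100a8 (chr3:90669071-90670034) and S100a9 (chr3:90692630-90695721) lie 22.6 kb apart. Among the stefins, Stfa2l1 occupies chr16:36156811-36161948 and Stfa3 chr16:36450537-36455392. Cstb lies at chr10:78425670-78427622, Cst3 at chr2:148871722-148875512, Cst7 at chr2:150570415-150578944 and Asprv1 at chr6:86628174-86629710.

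Stfa2l1, Stfa3 and Asprv1 read lower than wild type by 2-fold or more in each line, and lower again in Line 3 than in Line 6. In bulk RNA, fewer cells of a type and less RNA per cell cannot be told apart. S100a8, S100a9, Cstb, Cst3 and Cst7 stayed within 2-fold in all comparisons, where 8.07% of all genes kept lay outside it in Line 3, 5.02% in Line 6 and 2.31% between the lines. Differences are given on the log2(intensity + 16) scale with wild type, or Line 6, subtracted. The probe set with the highest mean stands for a gene, and genes were kept if they reached an array's median intensity at least once (99.0 in Line 3, 116 in Line 6 and 96.2 in wild type). All 8 genes were kept, 7 of them with every array at or above the median. The exception was Stfa3, which lay below the median in Line 3 and was kept through the other arrays.

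In Line 3, 3 of the 8 genes were at least 2-fold lower than in wild type, where 4.47% of the 10866 genes kept were. In Line 6 it was also 3 of 8, against 2.43% of all genes kept. Between Line 3 and Line 6, 3 of 8 were at least 2-fold lower in Line 3, against 1.58%. The same 3 genes, Stfa2l1, Stfa3 and Asprv1, made up each count, and 2.08% of all genes were 2-fold lower in both lines and 0.414% in all 3 comparisons. No gene of the 8 was 2-fold higher in either line or in Line 3 against Line 6, against 3.60%, 2.60% and 0.727% of all genes kept. Since these contrasts chose the genes, and a single wild type array served both lines, nothing is read from these counts. The median difference of the 8 genes was -0.35 in Line 3 and -0.12 in Line 6, beside 0.12 and 0.06 over all genes kept.

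**Figure D1:**
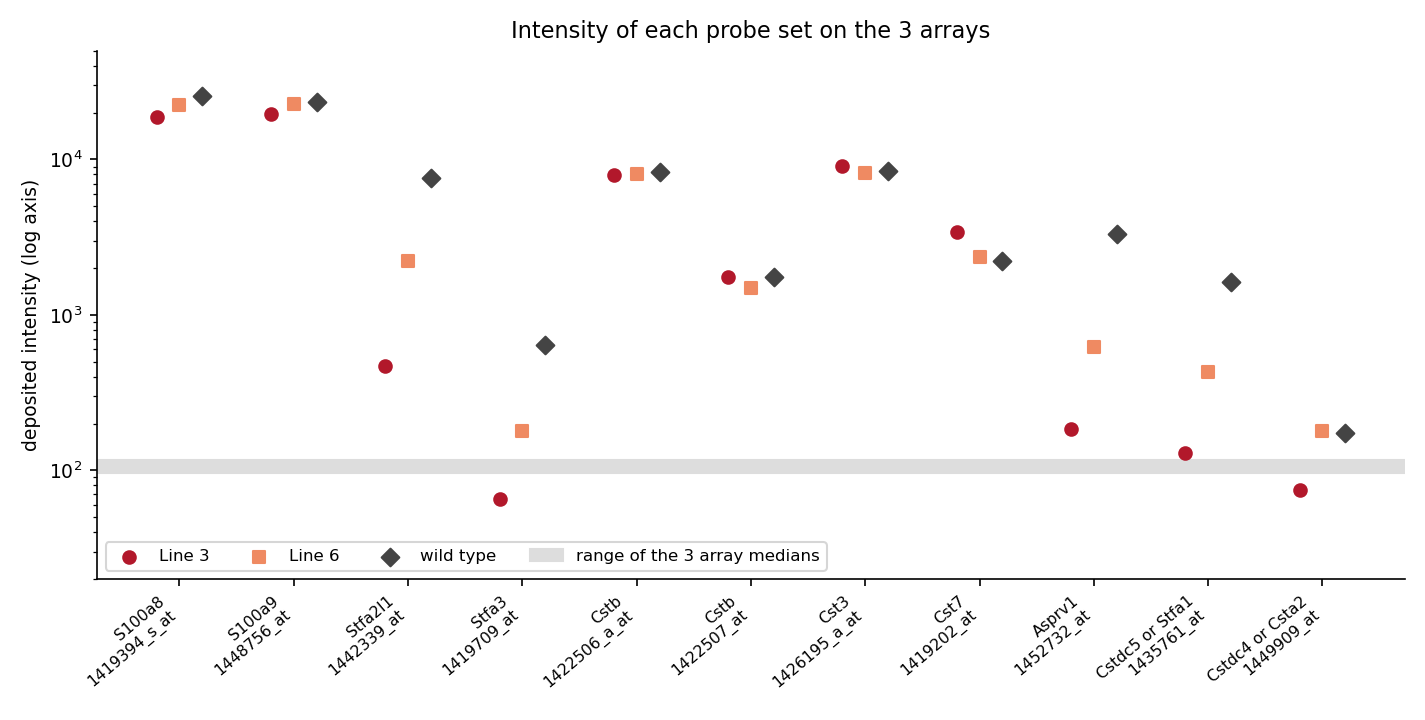
Deposited intensity (log axis) of the 9 probe sets of the 8 genes and of the 2 probe sets paired with several stefin copies, with a point for each array and a grey band for the range of the 3 array medians. Stfa2l1, Stfa3, Asprv1 and the Cstdc5 or Stfa1 probe set descend in steps towards Line 3, whereas the calprotectin, Cstb and Cst3 points lie close together.

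S100a8, the smaller calprotectin subunit, read 18745 in Line 3, 22487 in Line 6 and 25535 in wild type on its single probe set. The wild type reading was the highest of all 45037 on that array. The differences were -0.45 in Line 3 and -0.18 in Line 6, that is 1.36-fold and 1.14-fold lower, and -0.26 for Line 3 minus Line 6. S100a9, the other subunit, read 19653 in Line 3, 22790 in Line 6 and 23431 in wild type. Its differences were -0.25 in Line 3 and -0.040 in Line 6, and -0.21 between the lines. Both genes thus had their lowest reading in Line 3 and their highest in wild type, but the Line 6 difference of S100a9 was 0.02 after cyclic loess and -0.28 after centring each array on its median.

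The 2 calprotectin probe sets lay at the upper end of the intensity scale on every array, at ranks 13 and 11 in Line 3, 5 and 3 in Line 6, and 1 and 2 in wild type. Whether intensities were compressed there was not tested, and the deposited values carry no saturation marks. Among the 100 probe sets with the highest mean intensity, none differed by 2-fold in any comparison. These 100 were picked on the same 3 arrays, which works against probe sets that are low on any array, so nothing is read from that count. In Line 3 their differences from wild type ran from -0.61 to 0.33 with a median of 0.06, and 3 lay below S100a8 and 9 below S100a9. In Line 6 they ran from -0.34 to 0.28 with a median of 0.06, and 3 lay below S100a8 and 14 below S100a9.

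Stfa2l1, an A-type stefin gene, had the largest span of the stefins. It read 467 in Line 3, 2216 in Line 6 and 7563 in wild type. The differences were -3.97 in Line 3, 15.7-fold lower, and -1.76 in Line 6, 3.40-fold lower, with -2.21 between Line 3 and Line 6. Stfa3, another A-type stefin, read 65.2 in Line 3, 178 in Line 6 and 638 in wild type. Its differences were -3.01 and -1.75, or 8.05-fold and 3.37-fold lower, and -1.26 between Line 3 and Line 6. The 2 stefins had nearly the same difference in Line 6, while in Line 3 Stfa2l1 had the larger one.

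The probe set paired with both Cstdc5 and Stfa1 read 129 in Line 3, 432 in Line 6 and 1616 in wild type. Its differences of -3.49 in Line 3 and -1.86 in Line 6 lay between those of Stfa3 and Stfa2l1 in Line 3 and just beyond both in Line 6, but the signal cannot be divided between the 2 copies. The probe set paired with Cstdc4 and Csta2 read 74.6 in Line 3, 178 in Line 6 and 173 in wild type. It was 2.09-fold lower in Line 3 (-1.06) and 0.035 above wild type in Line 6, where the other scalings gave -0.17 to -0.20. Csta1, the remaining copy with a probe set of its own, read 7.55 in Line 3, 13.5 in Line 6 and 10.7 in wild type, below the median of every array. Of these 5 probe sets of the stefin cluster, 3 were 2-fold lower in both lines. The Cstdc4 or Csta2 probe set was so in Line 3 only, and Csta1, not kept by the filter, was too dim to show such a decrease. Of all 24354 probe sets kept, 4.36% were 2-fold lower in Line 3 and 2.08% in Line 6. The share lower in both was not counted, so nothing is read from the count in the stefin cluster. No probe sequences were used here, so whether the Stfa2l1 and Stfa3 probe sets also detect neighbouring copies was not tested.

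Cstb, the stefin B gene, has 2 probe sets and was close to wild type on both. The brighter one read 7902 in Line 3, 8116 in Line 6 and 8354 in wild type, differences of -0.080 and -0.042. The dimmer one read 1745 in Line 3, 1495 in Line 6 and 1744 in wild type, with the Line 6 array 0.22 below wild type. On the brighter probe set the Line 6 difference was 0 after quantile normalization and -0.28 after centring on array medians. The B-type stefin, which many cell types express, thus lay well inside the 2-fold limit on the arrays where the A-type copies Stfa2l1 and Stfa3 did not.

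The secreted and endosomal cystatins were not lower in both lines. Cst3 (cystatin C) read 9075 in Line 3, 8147 in Line 6 and 8459 in wild type, differences of 0.10 and -0.054. Cst7 (cystatin F) read 3404 in Line 3, 2343 in Line 6 and 2210 in wild type. Its difference was 0.62 in Line 3, 1.54-fold higher and the highest of the 8 genes, and 0.084 in Line 6, where centring on array medians turned it to -0.15. Between the lines Cst7 was 0.54 higher in Line 3 than in Line 6.

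Asprv1, the aspartic protease gene, read 184 in Line 3, 626 in Line 6 and 3314 in wild type on its only probe set. Line 3 was 16.7-fold lower than wild type (-4.06) and Line 6 5.19-fold lower (-2.37), and Line 3 was 3.21-fold lower than Line 6 (-1.68). These were the largest differences from wild type among the 8 genes in each line. Keratinocyte genes, checked because Asprv1 is known from the skin, summed over 6 probe sets to 164 in Line 3, 168 in Line 6 and 158 in wild type. Only Krt10 among them reached the median of an array, and Krt5 read 3.26, 7.83 and 9.63 in the same order, so the epidermal keratin markers were dim on each array.

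The order with the lowest reading in Line 3 and the highest in wild type held in 6 of the 8 genes, against 19.7% of all genes kept. Since the genes were chosen by these contrasts, nothing is read from this count. S100a9 lost the order after cyclic loess (Line 6 minus wild type 0.02). The brighter Cstb probe set lost it after centring on array medians (Line 3 minus Line 6 0.16), and the dimmer one did not have it. The exceptions were Cst3 and Cst7, which read highest in Line 3.

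**Figure D2:**
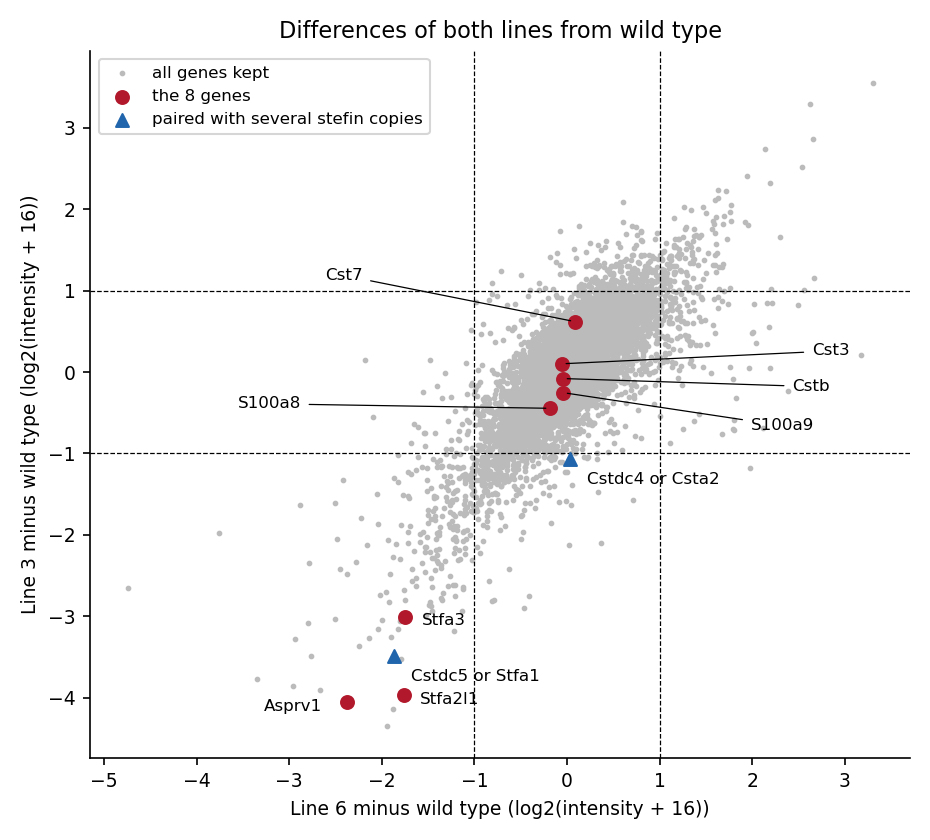
Line 6 minus wild type (horizontal axis) against Line 3 minus wild type (vertical axis) on the log2(intensity + 16) scale, with a grey point for each of 10866 genes, red points for the 8 genes and blue triangles for the 2 probe sets paired with several stefin copies; dashed lines mark 2-fold. Asprv1, Stfa2l1 and Stfa3 lie in the lower left with the Cstdc5 or Stfa1 probe set, and the other 5 genes lie inside the dashed lines. Both axes share the wild type array.

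Genes most like each of the 8 were found by the distance between their pairs of differences from wild type over the 3 arrays, leaving out gene models. Stfa2l1 was closest to Bst1 (distance 0.20), the gene of the surface enzyme CD157, which read 111 in Line 3, 588 in Line 6 and 2207 in wild type, followed by Steap4 (0.41) and Slfn1 (0.44). Steap4 read 26.5 in Line 3, 209 in Line 6 and 848 in wild type. It was below the array median in Line 3, so its distances depend on the pseudocount. Stfa3 was closest to Ankrd66 (0.038), Cd33 (0.074) and Ifnlr1 (0.16). Ankrd66 read 3.09 in Line 3, 31.4 in Line 6 and 141 in wild type, below the array median in both lines, so that its differences and its rank depend on the pseudocount. Cd33, a sialic acid-binding receptor gene of myeloid cells, read 424 in Line 3, 1037 in Line 6 and 3657 in wild type. Asprv1 had no gene within 0.25. Its nearest were Il1b (0.33), the interleukin-1 beta gene, with 370 in Line 3, 898 in Line 6 and 5778 in wild type, Bst1 (0.50) and Steap4 (0.52). Among the 8 genes themselves, the distance was 0.62 from Stfa2l1 to Asprv1, 0.96 from Stfa2l1 to Stfa3 and 0.24 from S100a8 to S100a9. For the 5 genes inside 2-fold likeness said little, because 998 (S100a8) to 2588 (Cst3) other genes lay within 0.25, among them Bloc1s3 beside S100a8, Atg4a beside S100a9, Aurka beside Cstb, Necap2 beside Cst3 and Tmem41a beside Cst7.

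The wider S100 list held 12 genes with a probe set, of which 6 were kept, including S100pbp, a binding protein and not an S100 protein itself. In Line 3, 1 of the 6 was at least 2-fold lower and all 6 were below wild type, with a median of -0.25. Of all 10866 genes kept, 4.47% were 2-fold lower in Line 3 and 4280 were below wild type. In Line 6 none passed 2-fold, where 5.02% of all genes kept did, and the median was -0.12. S100a6, a calcium-binding protein gene of proliferating and progenitor cells, was the 1 past the limit, reading 5433 in Line 3, 9071 in Line 6 and 13506 in wild type (-1.31 and -0.57). S100a4 differed by -0.39 and -0.14, S100a13 by -0.36 and -0.17, and S100a10 by -0.14 and -0.027, the last turning to 0.03 in Line 6 under another scaling. S100a6 therefore had a larger difference than either calprotectin gene in both lines. The calprotectin probe sets were brighter, at the upper end of the scale, and whether intensities were compressed there was not tested.

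Of 11 other cystatin genes with a probe set, among them Cst6, Fetub and Kng1, none was kept by the filter, and their intensities summed to 189 in Line 3, 223 in Line 6 and 280 in wild type. Of 11 genes for papain-type cathepsins and legumain, proteases that cystatins inhibit, 10 were kept. None of the 10 passed 2-fold in either line, where 8.07% of all genes kept did in Line 3 and 5.02% in Line 6. Their median was 0.09 in Line 3, against -0.01 in Line 6, or 0.01 in Line 6 after quantile normalization. Over all genes kept the medians were 0.12 and 0.06 on the deposited scaling. By the mean size over the lines, Ctso was the furthest from wild type (0.62 in Line 3 and 0.81 in Line 6), followed by Ctsw (0.74 and 0.54) and Lgmn, the legumain gene (0.46 and 0.45). Ctsc, which activates the serine proteases of neutrophil granules, differed by -0.33 and -0.37 on its brightest probe set, and by -1.16 and -1.71 on another. Ctsb and Ctss, cathepsins of lysosomes, differed by -0.07 and -0.02 and by -0.32 and -0.08.

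Receptors of calprotectin and subunits of the phagocyte NADPH oxidase read below wild type in 11 of 12 genes in Line 3 and 10 of 12 in Line 6, where 4280 and 4600 of all 10866 genes kept did. After centring on array medians all 12 did in Line 6, and so did 7643 of the 10866. Of 12 genes kept, 2 were at least 2-fold lower in Line 3, 1 in Line 6 and none higher, beside 4.47% and 2.43% of all genes kept lower, with medians of -0.66 and -0.45. Tlr4, the Toll-like receptor for calprotectin, read 496 in Line 3, 798 in Line 6 and 1288 in wild type (-1.35 and -0.68) on its brightest probe set. Another of similar brightness read 464, 511 and 775 in the same order and was inside 2-fold in Line 3 (-0.72), and a dimmer one was at -1.03. Its co-receptor gene Cd14 read 132 in Line 3, 63.7 in Line 6 and 436 in wild type (-1.61 and -2.50), so that here Line 6 had the lowest reading. The oxidase genes Cybb (-0.99 and -0.55) and Ncf4 (-0.87 and -0.65) were inside 2-fold on their brightest probe sets. Cybb has 2 further probe sets, both past 2-fold in Line 3 (-1.12 and -1.19) and inside it in Line 6 (-0.69 and -0.57).

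The 7 myeloid transcription factor genes kept are given by their brightest probe sets. Of these, 1 was at least 2-fold lower in Line 3 and none in Line 6, beside 4.47% and 2.43% of all genes kept. Their medians were -0.57 and -0.44, beside 0.12 and 0.06 over all genes kept. Cebpd read 1405 in Line 3, 1739 in Line 6 and 3262 in wild type (-1.21 and -0.90), and centring on array medians took its Line 6 difference past 2-fold (-1.14). Stat3 (-0.74 and -0.44), the PU.1 gene Spi1 (-0.59 and -0.49) and Cebpb (-0.57 and -0.41) had smaller differences on their brightest probe sets. Dimmer probe sets went past 2-fold for Cebpb in Line 6 (-1.17, with -0.71 in Line 3) and for Stat3 in Line 3 (-1.10, with -0.60 in Line 6). Cebpa, which acts early in the granulocyte lineage, was higher, at 0.72 in Line 3 and 0.20 in Line 6, and it is named outside the rule for naming, after its values were seen.

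**Figure D3:**
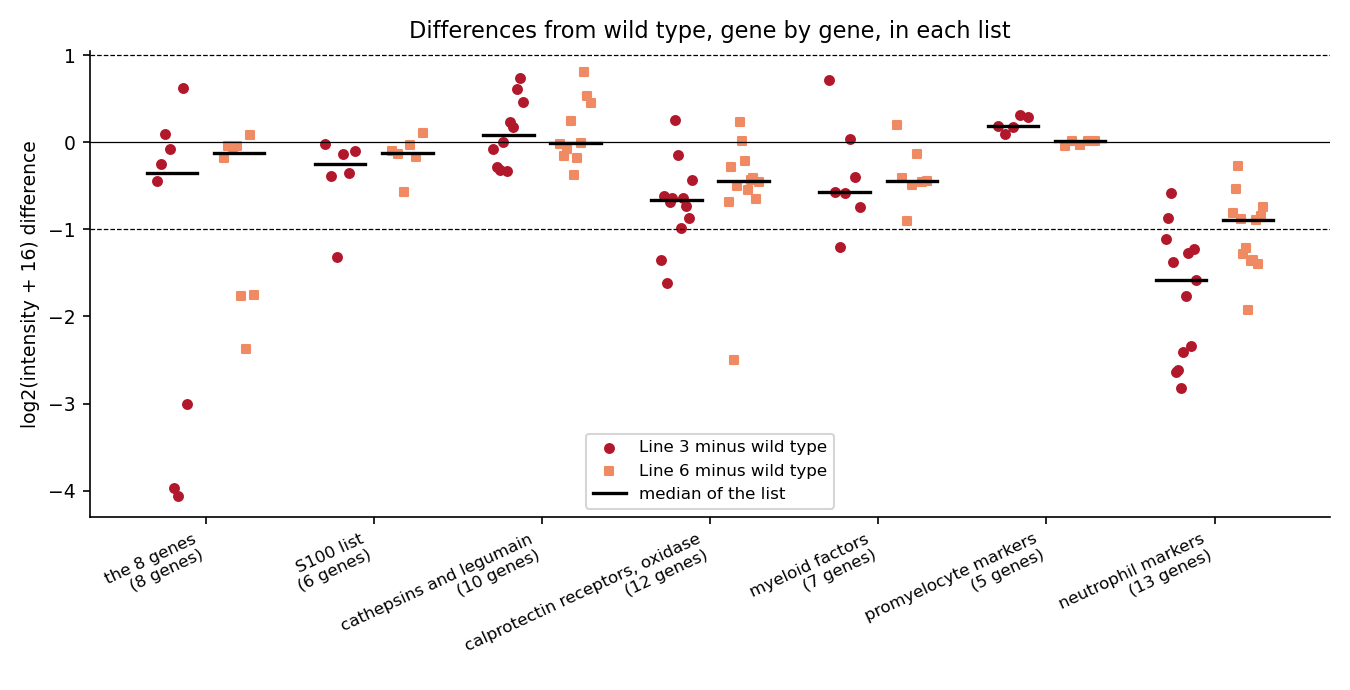
Difference from wild type on the log2(intensity + 16) scale for each kept gene of 7 groups, Line 3 as red circles and Line 6 as orange squares, with bars at the list medians and dashed lines at 2-fold. The Line 3 points of Asprv1, Stfa2l1 and Stfa3 lie below all 13 neutrophil markers, though Stfa3 would not with a pseudocount of 64. In Line 6 Asprv1 (-2.37) lies below the lowest neutrophil marker (-1.92), which lies below Stfa2l1 and Stfa3.

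All 13 neutrophil markers kept were below wild type in both lines, at a median of -1.58 in Line 3 and -0.89 in Line 6, where 4280 and 4600 of all 10866 genes kept were below it. Of these, 11 were at least 2-fold lower in Line 3 and 6 in Line 6, or 10 in Line 6 after centring on array medians, beside 4.47% and 2.43% of all genes kept on the deposited scaling. Their summed intensity was 48190.5 in Line 3, 67950 in Line 6 and 122244 in wild type, and none read 0. Mmp9, a granule protease gene, differed by -2.61 and -1.21, Mmp8 by -2.63 and -1.28 and Itgb2l by -2.82 and -1.92. Ltf, the lactoferrin gene, was at -1.12 and -0.81 and Camp, the cathelicidin gene, at -0.87 and -0.54, both outside the rule for naming, as are Ctsb, Ctss, Krt5 and Kit.

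The 5 promyelocyte markers, expressed before these, had a median of 0.19 in Line 3, against 0.01 in Line 6. Centring on array medians turned the Line 6 value to -0.23. Their summed intensity was 56546 in Line 3, 49188 in Line 6 and 49356 in wild type, with Prtn3, the proteinase gene, at 0.18 and -0.03 and Ctsg, the cathepsin G gene, at 0.31 and 0.01. Among the neutrophil markers Itgb2l lay furthest below wild type in both lines. Asprv1 was below it in both lines and Stfa2l1 in Line 3, but in Line 6 Stfa2l1 (-1.76) and Stfa3 (-1.75) were above Itgb2l (-1.92). Stfa3 was below Itgb2l in Line 3 with a pseudocount of 16 (-3.01), but not with 64, where it was at -2.44 and Itgb2l, Mmp8 and Mmp9 lay lower. On the deposited scaling S100a8 and S100a9 were nearer to wild type than Ngp, a granule protein gene and the nearest of the markers (-0.58 in Line 3 and -0.27 in Line 6), which is named after its values were seen. The part of these markers in the differences of the 8 genes was not tested.

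Of the stem and progenitor markers 6 were kept, with a median of 1.34 in Line 3 and 0.81 in Line 6, and Kit read 923 in Line 3, 899 in Line 6 and 603 in wild type and Cd34 read 2315, 1838 and 971 in the same order. Monocyte and macrophage markers (11 kept) had a median of 1.08 in Line 3, against 0.80 in Line 6. That list was divided, with Ccr2 (-0.54 and -0.58), F13a1 (-0.48 and -0.50) and Csf1r (-0.13 and -0.28) below wild type in both lines and C1qc (2.22 and 1.72), Mrc1 (2.41 and 1.94) and Cd5l (3.55 and 3.30) above it; the first 3 are named after their values were seen. The medians were for B cell markers (5 kept) -0.24 and 1.81, for mast cell and basophil markers (5 kept) 1.40 and 0.34, and for erythroid markers (2 kept) 0.27 and 0.10. The brighter probe set of Kdm1a read 2979 in Line 3, 2575 in Line 6 and 2104 in wild type, and the dimmer one 1482, 911 and 916 in the same order. Whether their probes detect the transgene was not tested.

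**Figure D4:**
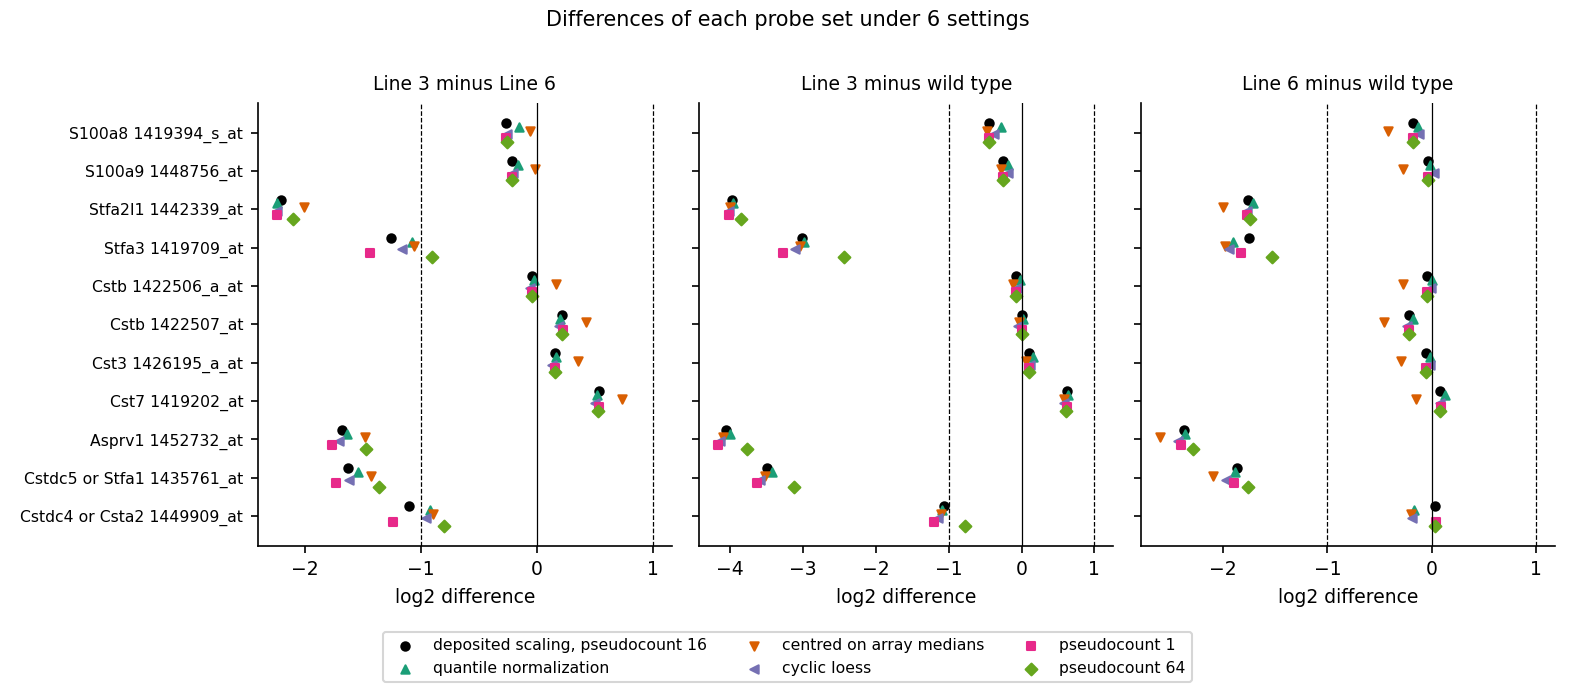
Log2 difference of each probe set under the deposited scaling with a pseudocount of 16 and under 5 alternatives, for Line 3 minus Line 6, Line 3 minus wild type and Line 6 minus wild type; dashed lines mark 2-fold. Stfa2l1, Asprv1 and the Cstdc5 or Stfa1 probe set lie past 2-fold lower under all settings drawn, and Stfa3 does except for Line 3 minus Line 6 with a pseudocount of 64.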

How the data were processed

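Per the labels' protocols, RNA of 3 samples was amplified, given a biotin label and measured on Affymetrix GeneChip arrays. The deposited values are linear intensities, 1 per probe set and array. How they were summarised and scaled, and with which software, is stated neither in the labels nor in the file header. Nearly equal trimmed means (497 on each array, 2% trimmed from each end) show that the authors' values had been scaled. No detection calls came with them.

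Of 45037 probe sets, 34945 had 1 gene symbol in the platform annotation, 932 several and 9160 none listed, and 34741 matched the gene table (GRCm38.p6) by Entrez identifier. Values were transformed here as log2(intensity + 16), which understates differences of dim genes. Filter, gene rule and 2-fold limit are as given above. The genes, lists and limits were chosen with earlier results of these data known. The rule for naming took the 8 genes, up to 4 genes per list and 3 per marker list with the largest mean difference of the lines, and the 3 nearest genes of each member. Not every gene that met this rule was printed. No test was run because each group had 1 array. Alternatives were quantile normalization, median centring, cyclic loess, other pseudocounts, filters, probe set rules and limits. Stefin promoter windows were aligned pairwise with end gaps free. Cyclic loess was run with limma 3.58.1 in R 4.3.3, and everything else in Python 3.11.15 with scipy 1.17.1, numpy 2.4.6, pandas 2.3.3 and matplotlib 3.10.9.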

Additional observations from a re-analysis of the deposited data

Results flagged for a closer look

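In 3 probe sets the lines lay on opposite sides of wild type, and with 1 array each this contrast between them was not tested. The dimmer Cstb probe set was 0.00066 above wild type in Line 3 and differed by -0.22 in Line 6. Cst3 was 0.10 above wild type in Line 3, against -0.054 in Line 6. The probe set paired with Cstdc4 and Csta2 was at -1.06 in Line 3, against 0.035 in Line 6, and its Line 6 value was below wild type under each of the other 3 scalings (-0.17 to -0.20).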

How the results depend on the processing

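The count of genes past 2-fold among the 8 stayed within 1.5 times under all 11 alternatives in each of the 3 comparisons. It was 3 under each, except for Line 3 minus wild type at a limit of 1.5-fold, where Cst7 made it 4, and for Line 3 minus Line 6 with a pseudocount of 64 or a limit of 3-fold, where it was 2. From the 3-fold to the 1.5-fold limit, 1.79% to 10.3% of all genes were lower and 0.552% to 15.2% higher in Line 3. In Line 6, 0.653% to 6.96% were lower and 0.580% to 9.37% higher. Between the lines, 0.368% to 5.30% were lower and 0.129% to 4.38% higher in Line 3. The contrasts chose the genes, so nothing is read from the steady count. With plain _at probe sets 6 of the 8 genes were measured. None of the 14 probe set differences past 2-fold changed sign under 5 alternatives, and 3 left the called side. These were Stfa3 for Line 3 minus Line 6 with a pseudocount of 64 (-0.91) and the Cstdc4 or Csta2 probe set for Line 3 minus wild type (-0.78 with a pseudocount of 64) and for Line 3 minus Line 6 (-0.80 to -0.95 under 4 alternatives). Of 19 smaller differences, 6 changed sign or reached 0. Centring on array medians lowered every Line 6 minus wild type difference by 0.24 and every Line 3 one by 0.04, and took the neutrophil markers 2-fold lower in Line 6 to 10 of 13. It also took the share of all genes kept that were 2-fold lower in Line 6 from 2.43% to 4.33%. No paired analysis was possible because each group had 1 array. Leaving out a replicate was not possible for the same reason, and no detection calls show which dim readings exceed background.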
